A study of Homo sapiens with 9 samples.

Results

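Integrins are cell surface receptors made of 1 alpha and 1 beta chain, and laminins are the trimers of 1 alpha, 1 beta and 1 gamma chain that form the base of basement membranes. The transcripts of both families were read in A2780 cells, a human ovarian carcinoma line, after 24 h with DIG-MSK (demycarosyl-3D-beta-D-digitoxosyl-mithramycin SK), an analogue of mithramycin A. Mithramycins sit in the minor groove of DNA, at stretches rich in C and G. Untreated cells, cells given 8 nM and cells given 80 nM were compared, with 3 one-colour arrays in each group and no other agent or genetic change named for any group. All groups came from 1 cell line. As to replicates, the study's methods describe treatments run in triplicate and independent biological replicates, all of the one line, so the p-values measure only the spread between these samples. The members were all non-control probes on a RefSeq messenger RNA of a gene named as an integrin alpha chain, an integrin beta chain from ITGB1 to ITGB8 or a laminin chain. The rule found 38 genes, 26 integrin and 12 laminin genes, read by 51 probes, among 35028 genes on the array.

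An alpha chain largely decides what an integrin binds, such as collagen, laminin or the RGD sequence of fibronectin and vitronectin, and the beta chain links it to talin, kindlin and the actin cytoskeleton. Some alpha chains pair with a single beta chain and others with several, so a receptor can reach the surface only where both of its chains are made. Laminins follow the same logic, since a trimer is secreted only once its alpha chain has joined a beta and gamma pair. Epithelial tumours of the ovary meet laminin and collagen in the peritoneal lining, where adhesion through integrins is a known part of their spread.

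Of the 38 member genes, 26 were measurable, meaning that in 1 group or more their probe stood well above background on each of the 3 arrays. All 26 met this on the untreated arrays, 25 met it at 8 nM and 22 at 80 nM. The 4 genes that were above background on 0 of the 80 nM arrays, ITGA1, ITGA8, ITGAD and LAMB1, thus passed only through groups in which they were higher, and without them 3 of the 7 falls described below are left. The 26 were 18 integrin and 8 laminin genes, against 21994 measurable genes on the whole array. A level below is the log2 of a probe's signal over the 75th percentile of its array, and levels of different probes cannot be compared. A gene is said to have risen or fallen, or to be called, where limma's fold change was 1.5 or more, or 0.67 or less, with an adjusted p below 0.05 over all 21994 genes.

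The 12 genes that were not measurable were left without a test. ITGA2, ITGAL, ITGAX, ITGB2, ITGB6, LAMA2, LAMA3, LAMB3 and LAMB4 were well above background on 0 of the 9 arrays. ITGB3 and ITGB8 were above it on 1 array each, and ITGA4 on 3 arrays through any of its 3 probes. Several of these are obligate partners of measurable members. ITGB2 is the only beta chain of ITGAM and ITGAD, and ITGB3 is the partner of ITGA2B.

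At 8 nM, 4 of the 26 measurable genes rose and 0 fell by limma. With the unadjusted p in place of the adjusted one, 5 rose and 0 fell, LAMB1 being the addition. Those that rose were ITGA3, an alpha chain for laminin, and the laminin chains LAMB2, LAMC1 and LAMC3. As a share this was 15.4% of the members, beside 3.71% of all genes called up and 1.42% called down at 8 nM. At 80 nM, 9 genes rose and 7 fell against untreated cells. That was 34.6% and 26.9% of the members, beside 18.6% of all genes called up and 15.8% called down. With a filter on all 9 arrays, which takes out ITGA1, ITGA8, ITGAD and LAMB1, 9 of 22 members rose (40.9%) and 3 fell (13.6%), beside 17.3% and 13.6% of all genes, so the share that fell was then that of all genes. Against 8 nM, the 80 nM arrays had 8 genes higher and 7 lower, or 30.8% and 26.9%, beside 19.2% and 13.8% of all genes. With arrays scaled to the spike-in controls in place of the 75th percentile, 5 members were higher and 7 lower in that comparison, beside 5.93% and 23.2% of all genes. Under that scaling 7 rose and 7 fell at 80 nM against untreated, beside 8.24% and 22.8% of all genes, and 1 rose and 0 fell at 8 nM, beside 1.6% and 0.123%. The 3 comparisons share their arrays, so their counts are not independent. The median member changed by 0.13 log2 units at 8 nM and by 0.47 at 80 nM against untreated, where the median of all genes was -0.06 and 0.08. The 3 untreated and 3 treated arrays did not overlap for 10 members at 8 nM, where 34% of all genes did not overlap, and for 23 members at 80 nM, where 72% of all genes did not. Untreated and 8 nM samples were on 1 slide with 1 scan time, while the 80 nM samples were on another slide with another scan time, so 80 nM and slide cannot be told apart in any result below.

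**Figure D1:**
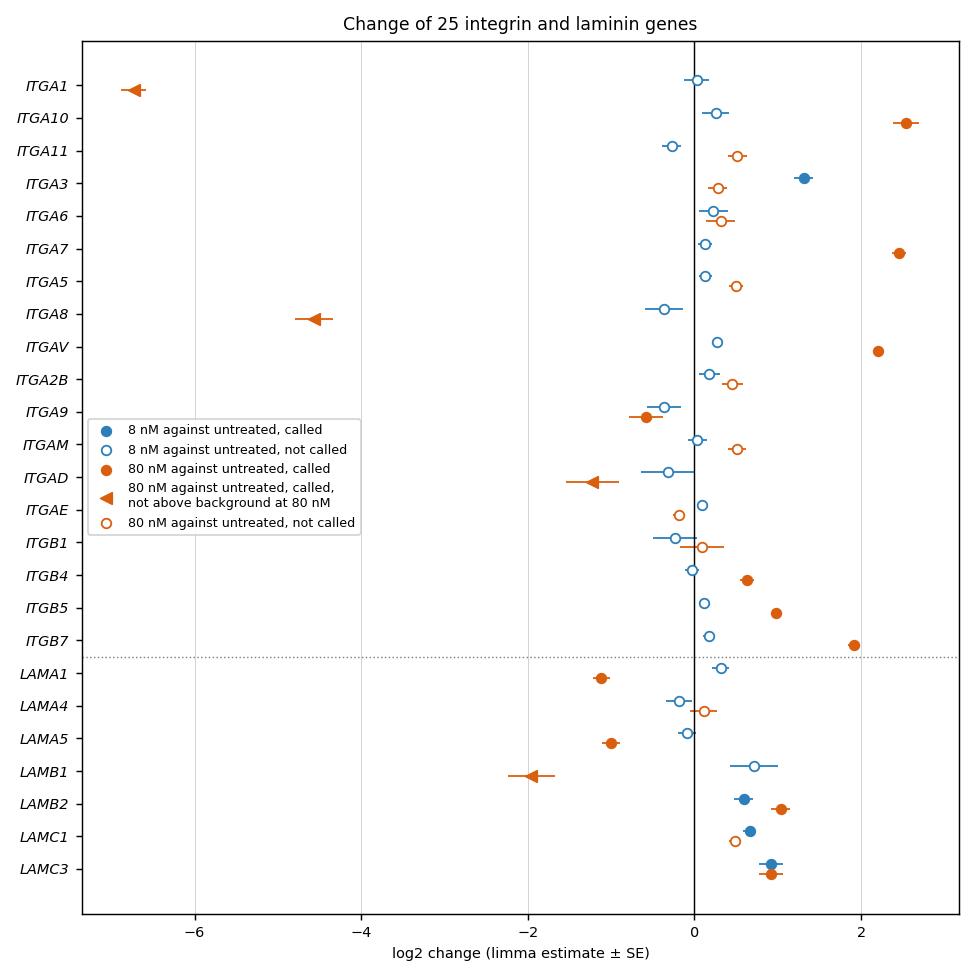
Log2 change of 25 of the 26 measurable genes, integrins above the dotted line and laminins under it, at 8 nM (blue) and 80 nM (orange) against the same 3 untreated arrays; points are limma estimates, bars are standard errors, and filled points were called. At 8 nM the called points are ITGA3, LAMB2, LAMC1 and LAMC3, all to the right of 0, while at 80 nM the rise of ITGA10 is 2.54. Left-pointing triangles (ITGA1, ITGA8, ITGAD and LAMB1 at 80 nM) mark probes above background on 0 of 3 arrays at 80 nM, whose plotted values are fitted ones and have no order.

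Factors of the Sp1 family bind GC boxes, which are common just before start sites, and the 250 bases upstream of the annotated start were therefore read from RefSeq on GRCh38.p14. A window was found for 26 of the 38 members, 18 of them measurable; where a gene had several, the most upstream was used. The search was for GGGCGG on either strand (CCGCCC on the other), overlapping matches counted. Printed here are, among genes that have a window, all 4 that fell and the 3 with the largest rises at 80 nM, each 5′ to 3′ on the gene's own strand with matches in capitals.
ITGA1, chr5:52787666-52787915, plus strand: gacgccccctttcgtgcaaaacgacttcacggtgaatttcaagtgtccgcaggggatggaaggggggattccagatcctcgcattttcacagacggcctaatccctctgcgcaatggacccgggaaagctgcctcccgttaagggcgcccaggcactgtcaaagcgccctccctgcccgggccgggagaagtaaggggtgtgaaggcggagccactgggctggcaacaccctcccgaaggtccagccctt
ITGA8, chr10:15719923-15720172, minus strand: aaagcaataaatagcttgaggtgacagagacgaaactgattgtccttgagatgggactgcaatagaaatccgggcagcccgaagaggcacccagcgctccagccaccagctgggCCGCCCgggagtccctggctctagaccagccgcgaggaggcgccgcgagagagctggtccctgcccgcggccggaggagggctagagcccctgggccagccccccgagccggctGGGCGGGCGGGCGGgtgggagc
LAMB1, chr7:108003162-108003411, minus strand: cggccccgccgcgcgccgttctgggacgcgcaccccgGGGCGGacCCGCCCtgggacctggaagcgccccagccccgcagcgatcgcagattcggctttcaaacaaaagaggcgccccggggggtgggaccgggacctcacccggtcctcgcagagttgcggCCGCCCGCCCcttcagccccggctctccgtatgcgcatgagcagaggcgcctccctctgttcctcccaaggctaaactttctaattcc
LAMA5, chr20:62367313-62367562, minus strand: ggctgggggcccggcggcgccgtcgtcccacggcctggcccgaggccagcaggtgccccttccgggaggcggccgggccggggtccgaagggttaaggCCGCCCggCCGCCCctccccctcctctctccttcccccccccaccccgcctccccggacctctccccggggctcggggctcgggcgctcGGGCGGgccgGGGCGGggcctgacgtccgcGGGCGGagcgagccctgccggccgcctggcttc
ITGA10, chr1:145910051-145910300, minus strand: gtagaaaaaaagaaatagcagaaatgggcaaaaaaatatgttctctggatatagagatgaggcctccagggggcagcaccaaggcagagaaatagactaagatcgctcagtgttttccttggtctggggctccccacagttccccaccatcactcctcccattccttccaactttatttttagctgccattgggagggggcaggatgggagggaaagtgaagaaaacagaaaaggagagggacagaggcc
ITGAV, chr2:186589806-186590055, plus strand: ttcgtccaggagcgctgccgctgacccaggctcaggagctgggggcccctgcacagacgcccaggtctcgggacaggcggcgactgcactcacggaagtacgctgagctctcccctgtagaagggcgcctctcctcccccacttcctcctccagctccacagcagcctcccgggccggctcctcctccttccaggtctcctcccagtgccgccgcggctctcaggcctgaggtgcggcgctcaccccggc
ITGB7, chr12:53207252-53207501, minus strand: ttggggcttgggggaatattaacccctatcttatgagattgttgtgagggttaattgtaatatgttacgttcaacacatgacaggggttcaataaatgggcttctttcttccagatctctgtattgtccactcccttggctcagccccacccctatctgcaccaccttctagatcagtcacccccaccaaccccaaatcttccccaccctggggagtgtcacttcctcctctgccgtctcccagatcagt

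Of the 4 genes that fell, LAMA5 held 5 matches, ITGA8 and LAMB1 held 4 each and ITGA1 held 0. The 3 printed genes that rose, ITGA10, ITGAV and ITGB7, held 0 each. ITGB5 and LAMB2, which also rose and have a window, held 2 and 1. G and C made up 62.0% of the window of ITGA1, 68.0% of that of ITGA8, 70.4% of that of LAMB1 and 82.8% of that of LAMA5. The risers were at 48.4% for ITGA10, 49.6% for ITGB7 and 70.8% for ITGAV, so ITGAV was as rich in G and C as LAMB1. The other risers with a window, ITGB5 and LAMB2, were at 52.8% and 58.4%. The median was 58.0% over all windows of the genome and 60.0% over measurable members that were not called. At least 1 match was present in 3 of 4 members that fell at 80 nM, 2 of 5 that rose and 4 of 9 that were not called. Of the 35116 windows of the genome, 42.6% had a match, but these include every window of every gene, measurable or not. Of the members that fell, ITGA1, ITGA8 and LAMB1 were above background on 0 of the 80 nM arrays. They passed the filter only through groups in which they were higher, and without them LAMA5 alone is left in that class. ITGB1, which was not called, held 3 matches and had 78.4% G and C. With 4 to 9 genes in a class these counts are a description, and a match in the letters is not a site at which a factor or the drug was measured.

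**Figure D2:**
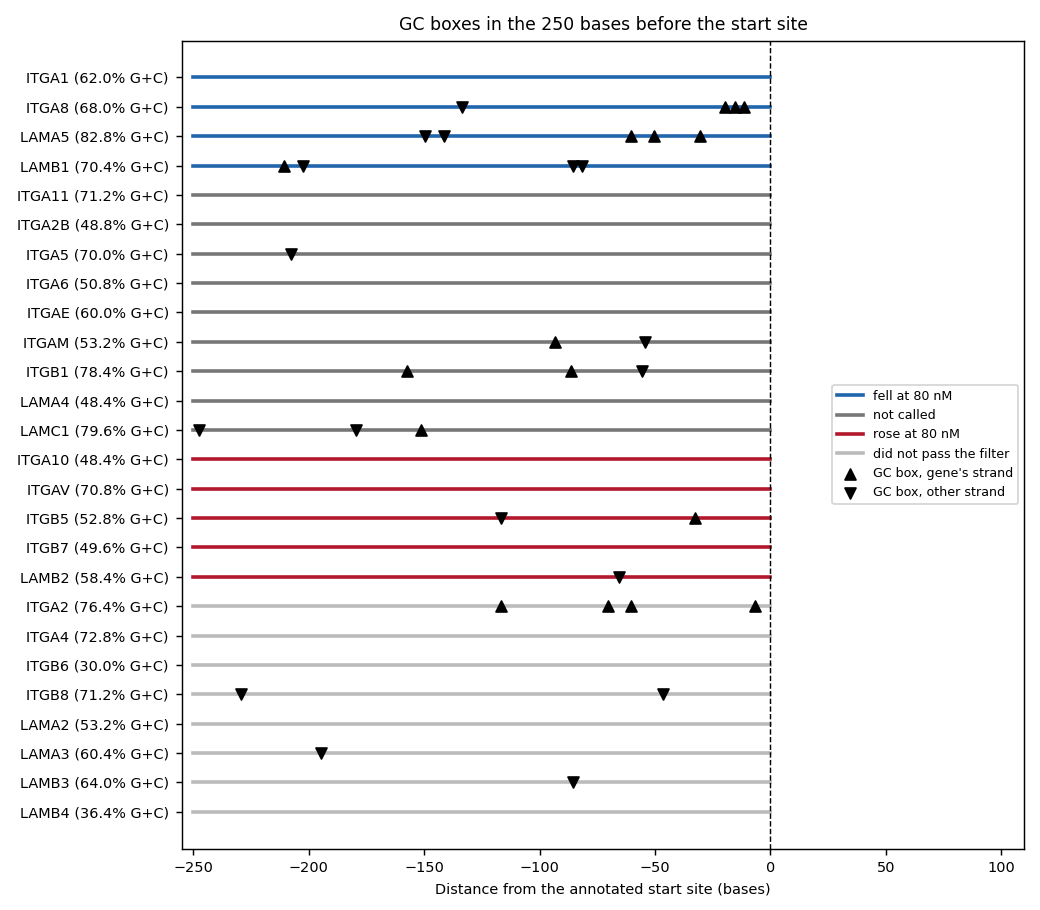
GGGCGG matches (triangles, pointing up on the gene's strand and down on the other) in the 250 bases before the start site of the 26 members that have a window, with distance from the start on the horizontal axis. Lines are coloured by the call at 80 nM, and the label gives the share of G and C. Matches are present in 3 of the 4 genes that fell and 2 of the 5 that rose, and ITGA1, ITGAV, ITGA10 and ITGB7 have none. Of the genes that fell, all but LAMA5 passed the filter only through groups in which they were higher.

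Among the alpha chains that bind collagen, ITGA1 fell and ITGA10 rose at 80 nM. ITGA1 encodes the alpha chain of a receptor for collagen IV. Its levels were -0.97, -1.36 and -1.35 on the untreated arrays, -0.98, -1.34 and -1.28 at 8 nM, and -8.07, -8.04 and -7.76 at 80 nM. Untreated and 8 nM arrays overlapped, and the 80 nM arrays lay far below both. At 80 nM the probe cleared background on 0 of 3 arrays, so only a bound can be given. ITGA1 was at least 25.5-fold lower than in untreated cells. The adjusted p of 1.9e-08 is limma's for the fitted change, which uses the dim 80 nM signals. Here and below, a bound holds for the main processing only, and the bound itself was not tested. Over the alternatives the fitted change of ITGA1 against untreated ran from -7.01 to -2.81 log2 units, at its smallest less than the bound. The fall was called in every alternative with a value. A bound of this kind sets the mean of the bright group against a floor on each array, which is the lowest signal of any probe well above background or the dim probe's own signal where that is higher, and bounds of different genes have no order.

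ITGA10, a collagen receptor chain best known from cartilage, stood at -4.44, -4.60 and -4.67 in untreated cells, at -4.38, -3.94 and -4.64 with 8 nM, and at -2.03, -2.07 and -2.01 with 80 nM. Its rise was 5.82-fold at 80 nM (2.54 ± 0.16 log2 units SE, adjusted p = 5.2e-06). ITGA11, the collagen receptor chain of fibroblasts, gave -4.37, -4.11 and -4.09 untreated, -4.37, -4.61 and -4.41 at 8 nM and -3.70, -3.53 and -3.80 at 80 nM. It was called only between the concentrations, 1.73-fold higher at 80 nM than at 8 nM (adjusted p = 0.00052), since its 1.43-fold difference from untreated cells missed the limit on fold (adjusted p = 0.0047). The call was lost with normexp (0.42 log2 units), spike-in scaling (0.43) and the authors' log2 values (0.47).

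The laminin-binding alpha chains differed in which concentration moved them. ITGA3, which pairs with ITGB1 in epithelial cells, was the only integrin called at 8 nM. It read -4.62, -4.31 and -4.26 in untreated cells, -3.14, -2.95 and -3.17 at 8 nM, and -4.21, -4.11 and -4.03 at 80 nM. All 3 arrays at 8 nM lay above the other 6. The rise at 8 nM was 2.48-fold (1.31 ± 0.11 log2 units, adjusted p = 0.00038), but only 0.58 log2 units with normexp background correction, below the fold limit. At 80 nM the difference from untreated was 0.28 (adjusted p = 0.064), and relative to 8 nM the 80 nM level was 2.04-fold lower (adjusted p = 0.00013), a call also lost with normexp (-0.46).

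ITGA7, the main laminin receptor chain of muscle, was called at 80 nM and not at 8 nM. Its levels were -0.62, -0.43 and -0.52 untreated, -0.42, -0.25 and -0.53 at 8 nM, and 1.90, 1.91 and 1.98 at 80 nM, a rise of 5.48-fold at the higher concentration (2.45 ± 0.09 log2 units, adjusted p = 2.4e-07). The change at 8 nM was 0.13 (adjusted p = 0.36). Muscle markers were part of the marker lists, and DES, MYOG and ACTA1 were all well above background in every group. Their summed signal over the array's 75th percentile ranged from 0.67 to 0.70 in untreated arrays, from 0.67 to 0.76 at 8 nM and from 0.74 to 0.90 at 80 nM. Of the list, only ACTA1 had a higher mean level at 80 nM, going from -3.88 untreated to -2.36. DES went from -0.81 to -0.84 and MYOG from -4.41 to -4.55. The part of a muscle-like programme in the ITGA7 result was not tested. ITGA6, which pairs with ITGB1 or ITGB4, was not called, with changes of 0.22 and 0.32 log2 units at the lower and higher concentration (adjusted p of 0.41 and 0.15), and its other probe gave -0.23 at 80 nM (adjusted p = 0.39).

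Of the alpha chains for RGD ligands, ITGAV rose and ITGA8 fell at 80 nM. ITGAV is the chain of the vitronectin receptors and of integrins that release active TGF-beta. It was at 3.34, 3.25 and 3.28 in untreated cells, 3.57, 3.59 and 3.52 at 8 nM, and 5.54, 5.47 and 5.49 at 80 nM. The arrays formed 3 separate groups with a narrow spread. The difference at 8 nM, 0.27 ± 0.06 log2 units, had an adjusted p of 0.027 and was below the fold limit, and the rise at 80 nM was 4.62-fold (2.21 ± 0.06 log2 units, adjusted p = 6.7e-08).

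ITGA8, the receptor chain for nephronectin, was at -3.09, -3.69 and -3.65 in untreated cells, at -3.45, -4.25 and -3.81 with 8 nM, and at -8.17, -8.11 and -7.85 with 80 nM. No 80 nM array had it well above background. It was at least 5.38-fold lower than untreated and at least 4.18-fold lower than at 8 nM in the main processing. Over the alternatives its fitted change ran from -4.85 to -1.26 log2 units against untreated and from -4.57 to -0.99 against 8 nM. The smallest of these are less than the bounds, although both falls were called in every alternative with a value. Limma's adjusted p for the fitted changes was 1.3e-06 and 2.2e-06. ITGA5, the fibronectin receptor chain, was 0.50 log2 units higher at 80 nM with little spread (SE 0.08, adjusted p = 0.00094), which is 1.41-fold and so not called. ITGA2B, known from platelets, showed a like size, 0.45 (SE 0.13, adjusted p = 0.014), also not called. The platelet markers PF4, PPBP, GP1BA and GP9 were all well above background in untreated cells, and their summed signal went from a range of 0.57 to 0.62 untreated to 0.09 to 0.12 at 80 nM.

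The remaining alpha chains were mostly dim. ITGA9, which binds tenascin-C and VCAM1, read -2.97, -3.15 and -3.40 untreated, -3.13, -3.70 and -3.79 at 8 nM and -3.62, -3.59 and -4.06 at 80 nM. Its fall at 80 nM was 0.668 of the untreated level, just inside the limit of 0.67 (-0.58 ± 0.21 log2 units, adjusted p = 0.04). The call was lost on leaving out untreated replicate 1 (adjusted p = 0.12), untreated replicate 2 (0.089), 80 nM replicate 1 (0.056) or 80 nM replicate 3 (0.13), and with normexp, the authors' log2 values or no filter on dim probes. ITGAD, a leukocyte chain, stood at -4.94, -5.26 and -5.18 untreated, -5.50, -5.26 and -5.59 at 8 nM and -7.17, -5.70 and -6.19 at 80 nM. It was above background on 2 of the 8 nM arrays and on 0 of the 80 nM arrays. The bound is at least 1.57-fold lower at 80 nM than untreated, and limma's adjusted p for the fitted change was 0.011. ITGAD's difference between the concentrations (adjusted p = 0.04) was lost on leaving out any one array other than 80 nM replicate 2, with adjusted p from 0.052 to 0.1. Its fall against untreated was lost with normexp (-0.06 log2 units) and with the authors' log2 values (-0.21).

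ITGAM, the chain of the complement receptor of myeloid cells, was 0.51 log2 units higher at 80 nM (SE 0.11, adjusted p = 0.0046), short of the fold limit, from a level of -5.47 in untreated cells. ITGAE, which with ITGB7 binds E-cadherin, was not dim, with a level of 0.33 in untreated cells. It was 0.19 lower at 80 nM (SE 0.07, adjusted p = 0.035), also short of the fold limit. Of the leukocyte markers, 6 of the 7 on the array were well above background in untreated cells, PTPRC among them, and their summed signal ranged from 0.45 to 0.51 untreated, from 0.43 to 0.47 at 8 nM and from 0.34 to 0.40 at 80 nM. The part of leukocyte markers in the levels of the leukocyte integrins was not tested.

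Of the 4 measurable beta chains, 3 rose at 80 nM, 0 fell, and none was called at 8 nM. ITGB1, which pairs with most of the alpha chains above, was not called in any comparison. It read 1.65, 1.41 and 1.48 in untreated cells, 1.65, 0.63 and 1.56 at 8 nM, and 1.92, 1.48 and 1.40 at 80 nM. Array 2 at 8 nM lay well below the other 8, and the groups overlapped. The change was -0.24 ± 0.27 log2 units with 8 nM (adjusted p = 0.57) and 0.09 ± 0.27 with 80 nM (adjusted p = 0.79), so a change within this error was not detectable.

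ITGB5, a partner of ITGAV, was at -0.37, -0.41 and -0.40 untreated, at -0.29, -0.35 and -0.21 with 8 nM and at 0.61, 0.55 and 0.60 with 80 nM. It rose 1.98-fold at 80 nM (0.98 ± 0.06 log2 units, adjusted p = 6.2e-06). ITGAV and ITGB5 were thus both higher at 80 nM. Of the other beta chains that pair with ITGAV, ITGB1 was measurable and not called, and ITGB3, ITGB6 and ITGB8 were not measurable. ITGB4, the hemidesmosome chain that pairs with ITGA6 alone, gave -2.62, -2.66 and -2.75 untreated, -2.70, -2.58 and -2.82 at 8 nM and -2.11, -2.03 and -1.99 at 80 nM. The rise was 1.55-fold (0.63 ± 0.08, adjusted p = 0.00029), close to the limit on fold. It was lost with normexp (0.52), median scaling (0.57), spike-in scaling (0.35) and the authors' log2 values (0.57).

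ITGB7, the lymphocyte chain that pairs with ITGAE and ITGA4, was at -3.13, -3.17 and -3.25 untreated, at -2.93, -2.98 and -3.12 with 8 nM, and at -1.26, -1.29 and -1.26 with 80 nM. Its rise was 3.77-fold at 80 nM (1.92 ± 0.07 log2 units, adjusted p = 3e-07). Of its partners, ITGAE was not called and ITGA4 was not measurable.

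**Figure D3:**
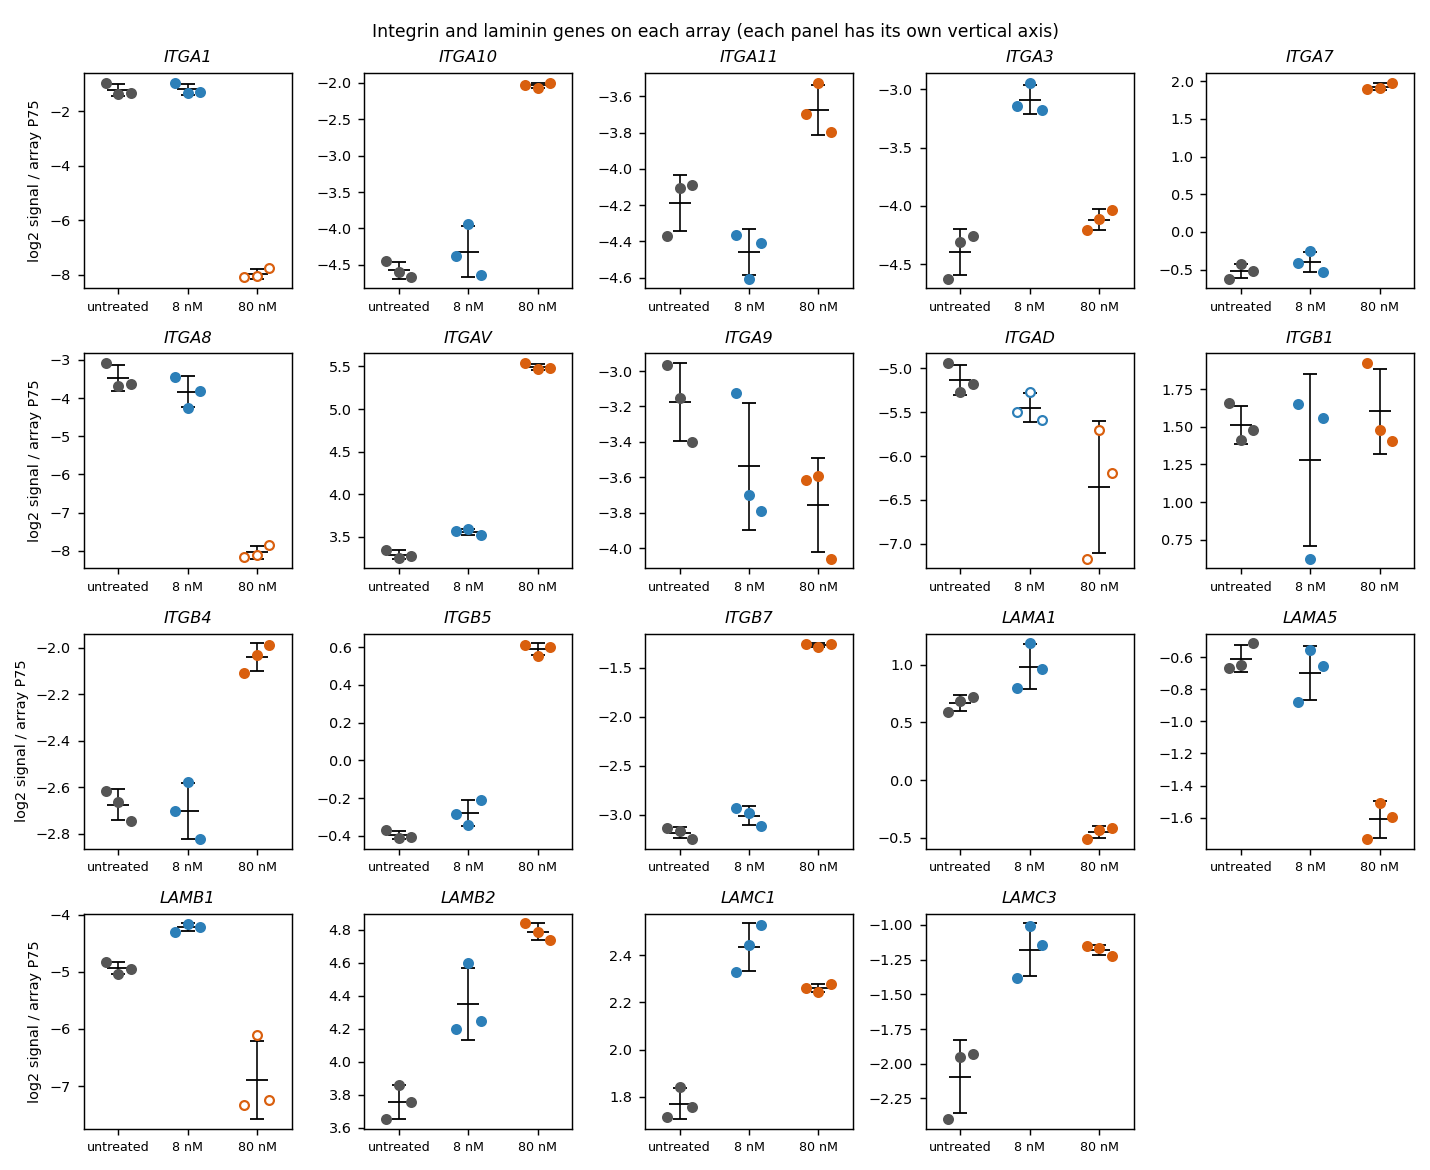
Level on each array (log2 signal over the array's 75th percentile) of 18 of the 19 members called in at least 1 comparison and of ITGB1, for untreated cells (grey), 8 nM (blue) and 80 nM (orange); bars are mean and SD of 3 arrays, open points mark groups in which the probe was not well above background on all 3 arrays. Each panel has its own axis; the open 80 nM points of ITGA1, ITGA8, ITGAD and LAMB1 lie below the other arrays, and for ITGA3 the 3 arrays at 8 nM lie above the other 6.

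The laminin alpha chains fell or were not called at 80 nM. LAMA1, the alpha chain of the embryonic laminin, was at 0.59, 0.68 and 0.72 in untreated cells, 0.80, 1.18 and 0.97 at 8 nM and -0.51, -0.43 and -0.41 at 80 nM. All arrays at 8 nM lay above the untreated ones and all arrays at 80 nM below them. The difference at 8 nM was 0.32 (adjusted p = 0.079), not called, and the fall at 80 nM was 2.17-fold (-1.12 ± 0.10 log2 units, adjusted p = 4e-05). A second, dimmer probe of LAMA1 gave -0.44 at 80 nM (adjusted p = 0.023), in the same direction but short of the fold limit.

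LAMA5, the alpha chain of most adult epithelial basement membranes, stood at -0.66, -0.65 and -0.51 untreated, -0.88, -0.56 and -0.66 at 8 nM and -1.73, -1.51 and -1.60 at 80 nM. It fell by 1.00 log2 units at 80 nM (SE 0.10, adjusted p = 8.3e-05), with no overlap between the 80 nM arrays and the rest. LAMA4, found in vessel and muscle basement membranes, was read by 4 probes, of which 2 were measurable, and these disagreed. The probe with the higher mean level over the arrays changed by 0.11 at 80 nM (adjusted p = 0.58) and the other by -2.73 (adjusted p = 2.1e-06), from -3.51 in untreated cells to a level well above background on 1 of 3 arrays at 80 nM. The direction of LAMA4 at 80 nM is therefore not settled by this array.

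**Figure D4:**
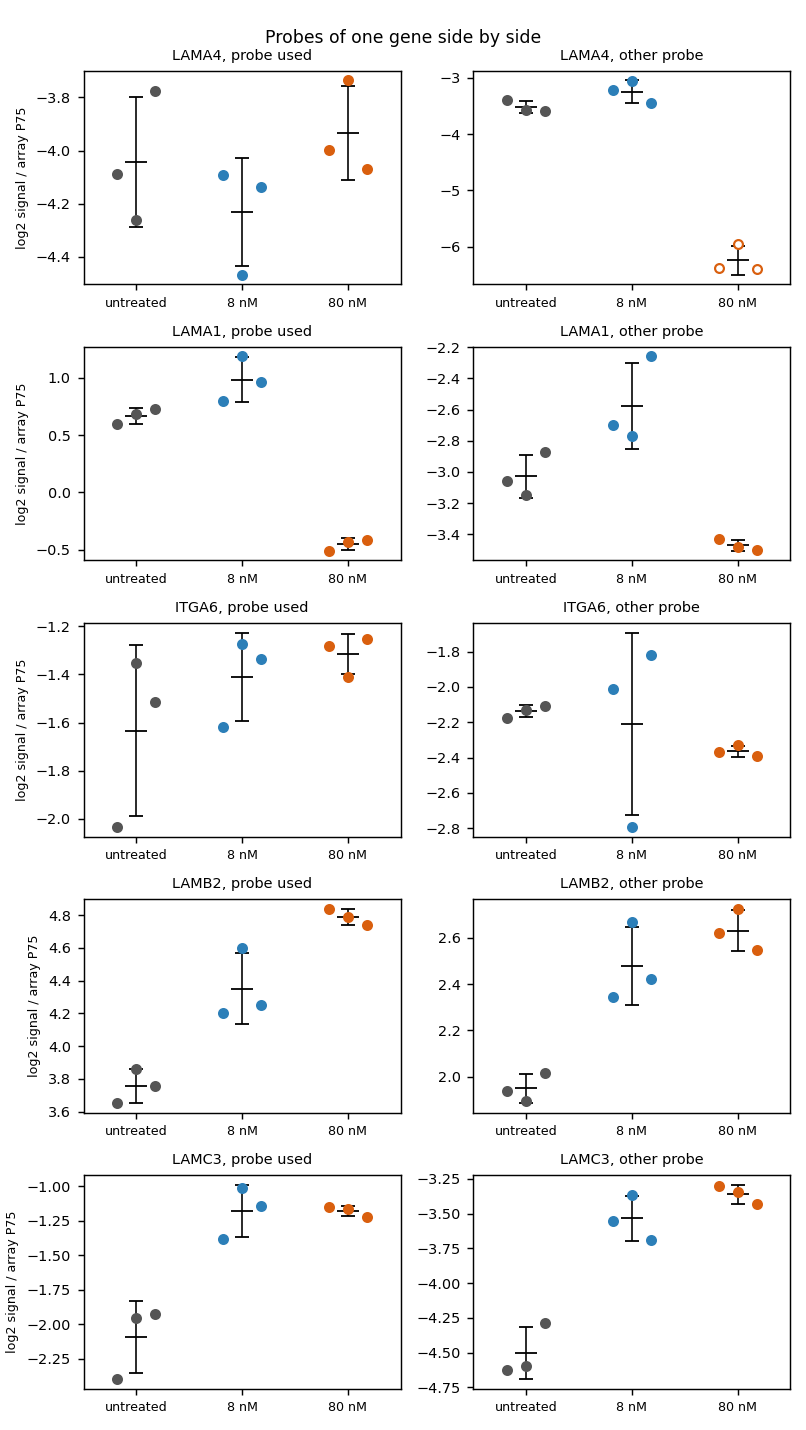
Levels on each array for the 5 members with 2 measurable probes, the probe used for the gene at left and the other at right (log2 signal over the array's 75th percentile; bars are mean and SD of 3 arrays, open points mark groups not well above background on all 3 arrays, each panel with its own axis). The LAMB2 and LAMC3 probes all had higher means at both concentrations than in untreated cells, although the second LAMB2 probe was not called at 8 nM, both LAMA1 probes were lower at 80 nM, and the LAMA4 probes parted, with changes of 0.11 and -2.73 at 80 nM.

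The beta chains, which take alternative places in the trimer, moved apart. LAMB1 levels were -4.83, -5.03 and -4.95 untreated, -4.30, -4.16 and -4.21 at 8 nM and -7.33, -6.11 and -7.25 at 80 nM. The groups did not overlap, with 8 nM above and 80 nM below the untreated arrays. At 8 nM the difference was 0.71 ± 0.28 log2 units and was not called (adjusted p = 0.13), although it was called without 80 nM replicate 2 (adjusted p = 0.0035), the array whose level departs from its group, and in a fit with only the groups compared (adjusted p = 0.011). At 80 nM the probe cleared background on 0 arrays, and LAMB1 was at least 1.95-fold lower than untreated and at least 3.2-fold lower than at 8 nM. Limma's adjusted p for the fitted changes was 0.00052 and 0.0001. The fall against untreated was lost with normexp background correction (-0.25 log2 units, adjusted p = 0.12) and with the authors' log2 values (-0.51, short of the fold limit). The fall against 8 nM was called in every alternative with a value, but at its smallest it was -0.59 log2 units, less than the bound.

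LAMB2, the beta chain of the kidney filter and the neuromuscular junction, rose at both concentrations. It read 3.65, 3.86 and 3.76 untreated, 4.20, 4.60 and 4.25 at 8 nM and 4.84, 4.79 and 4.74 at 80 nM. The rise was 1.51-fold at 8 nM (0.59 ± 0.11 log2 units, adjusted p = 0.013) and 2.05-fold at 80 nM (1.03 ± 0.11, adjusted p = 0.00011). The call at 8 nM lay on the edge of the fold limit, and the value was 0.54 without untreated replicate 1 and 0.47 without 8 nM replicate 2, below it in both cases. It was lost as well with spike-in scaling and with the mean of the gene's probes. The second LAMB2 probe gave 0.53 at 8 nM, short of the fold limit, and 0.68 at 80 nM.

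The gamma chains LAMC1 and LAMC3 rose at 8 nM. LAMC1, the gamma chain of most laminins, was at 1.71, 1.84 and 1.76 untreated, 2.33, 2.44 and 2.53 at 8 nM and 2.26, 2.24 and 2.28 at 80 nM. It rose 1.58-fold at 8 nM (0.66 ± 0.07 log2 units, adjusted p = 0.0013), and its difference at 80 nM, 0.49 ± 0.07 (adjusted p = 0.00068), was below the fold limit. The direct difference between the concentrations was -0.17 (adjusted p = 0.077), so the 2 concentrations were not shown to differ.

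LAMC3, a gamma chain of restricted expression, was at -2.40, -1.95 and -1.93 untreated, -1.39, -1.01 and -1.14 at 8 nM and -1.15, -1.17 and -1.22 at 80 nM. Its rise was 1.88-fold at either concentration (0.91 ± 0.14 log2 units each), with an adjusted p of 0.0055 for 8 nM and 0.0008 for 80 nM. Its second measurable probe gave 0.97 and 1.14. With spike-in scaling the calls of LAMC1 at 8 nM and of LAMC3 at both concentrations were lost (adjusted p of 0.21 for LAMC1, and of 0.075 and 0.071 for LAMC3).

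Some members lie next to one another on their chromosomes. LAMB1 is adjacent among protein-coding genes to LAMB4, which was above background on no array. ITGAM, ITGAX and ITGAD follow one another, with 0.51 for ITGAM and a bound of at least 1.57-fold lower for ITGAD at 80 nM, and ITGAX not measurable. ITGA1 and ITGA2 have 1 protein-coding gene between them, and ITGA2 was not measurable in any group.

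Other genes of cell adhesion were taken from 4 lists, for which the unadjusted p gave the same counts against untreated cells as the adjusted p. The shares of all genes called were those given above, 3.71% up and 1.42% down at 8 nM and 18.6% up and 15.8% down at 80 nM. Of 14 measurable basement membrane partners of laminin, 3 rose and 0 fell at 8 nM, and 3 rose (21.4%) and 4 fell (28.6%) at 80 nM. The nidogens, which bridge laminin and collagen IV, rose at 80 nM, NID2 by 2.15 ± 0.09 log2 units (adjusted p = 6.4e-07) and NID1 by 1.54 ± 0.12 (adjusted p = 1.4e-05). The collagen IV chain COL4A5 rose at both concentrations, by 1.07 and 0.72. COL18A1, the source of endostatin, fell by 1.38 ± 0.12 (adjusted p = 3.6e-05), and TINAGL1 fell by 1.17 ± 0.15 (adjusted p = 0.00024) at 80 nM. Of 7 other measurable laminin receptors, 1 rose and 0 fell at 8 nM, and 1 rose and 1 fell at 80 nM (14.3% each). The riser in both was SDC4, a syndecan of focal adhesions, with 0.63 and 1.51 log2 units.

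Of 14 measurable integrin ligands other than laminins, 3 rose and 0 fell at 8 nM, and 5 rose (35.7%) and 7 of the 14 fell at 80 nM. THBS1, thrombospondin-1, rose by 2.59 ± 0.09 log2 units at 80 nM (adjusted p = 2e-07), CCN1 by 1.99 ± 0.12 (adjusted p = 4e-06) and MFGE8, a ligand of ITGAV receptors, by 1.43 ± 0.12 (adjusted p = 2e-05). SPP1, osteopontin, fell by 1.67 ± 0.16 (adjusted p = 5.5e-05) and FGG, a fibrinogen chain, by 1.06 ± 0.09 (adjusted p = 2e-05). FN1, fibronectin, was well above background on no array. Of 39 measurable cytoplasmic adhesion proteins, 0 were called at 8 nM, and 12 rose (30.8%) and 6 fell (15.4%, near the share of all genes) at 80 nM. TGFB1I1 rose by 2.31 ± 0.07 (adjusted p = 6.8e-08), the tensin TNS2 by 2.29 ± 0.08 (adjusted p = 2.6e-07) and KANK1 by 1.89 ± 0.18 (adjusted p = 5e-05). The kindlin FERMT1 fell by 1.39 ± 0.12 (adjusted p = 2.3e-05), TNS1 by 1.22 ± 0.19 (adjusted p = 0.00079) and the small GTPase RAP1B by 1.03 ± 0.10 (adjusted p = 5e-05). The median changes at 80 nM were 0.07 for the basement membrane list, 0.03 for the other laminin receptors, -0.61 for the ligands and 0.26 for the cytoplasmic list, beside 0.08 over all genes.

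The label of the cells was only partly borne out by markers of ovarian and Mullerian epithelium. KRT7, EPCAM and ESR1 were well above background on all 9 arrays, PAX8 on 2, 2 and 3 arrays of the groups in order of concentration, and WT1, MUC16 and CDH1 on none. The epithelial keratins KRT8, KRT18 and KRT19 and the mesenchymal genes VIM, CDH2 and COL1A1 were above background on all arrays. The mesenchymal list summed to 181 to 210 in untreated arrays, 165 to 185 at 8 nM and 245 to 260 at 80 nM, again as signal over the 75th percentile, and its part in the integrin changes was not tested. VIM makes up nearly all of that sum, and CDH2 of the same list had a mean level of 0.20 untreated and -2.13 at 80 nM, while FN1 was above background on 0 arrays. Across arrays, levels of all measurable genes correlated at 0.989 to 0.996 within groups and at 0.943 to 0.950 between untreated and 80 nM. Each array had 25047 to 27459 of 42405 gene probes well above background and 0 saturated probes, and the number of arrays limits the precision.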

How the data were processed

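Total RNA was labelled with Cy3 and hybridised to Agilent whole-genome arrays of 62976 spots, 3 for each group. The scanner files that the authors deposited hold intensity values per spot from Agilent Feature Extraction 10.7.3.1, per the submitters' processing notes, already background-subtracted as processed signals. The series table that the authors deposited holds their log2 values for the same arrays and served as an alternative. Their columns have medians from 6.45 to 6.53 and follow the log2 median signals of the same arrays (r from 0.9986 to 0.9998 over spots), and the study's methods name background subtraction and lowess normalization in Feature Extraction without saying how arrays were scaled to one another. No direction is involved in a one-colour array.

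Processed signals were put on the log2 scale, the array's own 75th percentile over gene spots (826 to 1166 intensity units) was subtracted, spots flagged as outliers (366 to 513 per array) were left out, and spots of a probe were averaged. Genes were named through the RefSeq accessions in the files (25715 of 27245 matched to the GRCh38.p14 gene table). The probe with the highest mean level stood for a gene. Genes that stood well above background on each array of 1 group or more were fitted with limma 3.58.1 in R 4.3.3 (lmFit, contrasts.fit and eBayes over all 9 arrays), with Benjamini-Hochberg adjustment over 21994 genes. The study's methods gave the fold limits. The fit was tested on simulated data.

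The members and the gene lists were chosen with earlier results of these data known. The measurable members were named, grouped by role, except 1 that is counted but not reported here, with values on every array for those called in at least 1 comparison and for ITGB1. Of each adhesion list, up to 3 of the largest rises and falls at 80 nM among called genes above background on each of the 6 arrays compared were named. The alternatives were normexp background correction on the median signals (offset 50), quantile, median and spike-in scaling, the authors' log2 values, other filters, the mean of a gene's probes, only the groups compared, a replicate block, the unadjusted p and leaving out each array.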

Additional observations from a re-analysis of the deposited data

How the results depend on the processing

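Over 19 alternatives with values, 21 of the 35 calls (a member in a comparison) held in every one that gave a value, and 0 of the 35 changed sign. With scaling to the spike-in controls, which moved the median of all genes at 80 nM from 0.08 to -0.20, 1 member was called up at 8 nM and 5 were called up between the concentrations. These were 3.85% and 19.2% of the members, beside 1.6% and 5.93% of all genes. The falls at 80 nM against untreated came to 4 with normexp background correction (15.4% of members, beside 10.5% of all genes). They came to 4 with the authors' log2 values (15.4%, beside 12.9%). The filter on all 9 arrays, which takes out ITGA1, ITGA8, ITGAD and LAMB1, left 3 (13.6%, beside 13.6%). That filter also left 3 falls between the concentrations (13.6%, beside 11.6%). With the mean of a gene's probes, LAMA4 was called down by -1.31 at 80 nM against untreated and by -1.35 against 8 nM. Among the 43 values that were not called, 38 of 813 alternative values had the other sign. Without single arrays, the counts were 3 to 5 rises at 8 nM, 9 rises and 6 to 7 falls at 80 nM, and 8 rises and 6 to 7 falls between the concentrations. Of all 21994 genes, 734 to 845 then rose at 8 nM. At 80 nM against untreated, 3899 to 4137 rose and 3226 to 3613 fell. Between the concentrations, 3890 to 4431 were higher and 2879 to 3257 lower. The main fit did not pair samples by replicate number, although deviations weakly followed the number between untreated and 8 nM. Deviations of same-numbered arrays correlated at 0.099 to 0.160 between untreated and 8 nM, where each array correlated best with its own number, and at -0.083 to -0.004 between untreated and 80 nM. With a replicate block, 4 rises at 8 nM, 9 rises and 7 falls at 80 nM, and 8 rises and 6 falls between the concentrations were called, ITGAD being the call lost. Of all 21994 genes, the block gave 792 rises at 8 nM, and 4048 rises and 3451 falls at 80 nM. It gave 4193 rises and 2992 falls between the concentrations. Probes near background, such as those of ITGAD and LAMB1, are where signal limits the calls.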
